A study of Mus musculus with 15 samples.

Results

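The genes described are 10 genes that defend the mouse germline against transposons or partner the piRNA machinery: *Mov10l1*, *Asz1*, *Pld6*, *Gtsf1*, *Fkbp6*, *Henmt1*, *Mael*, *Tex19.1*, *Tex19.2* and *Mov10*. They were chosen by name out of 55536 genes in the count table. All 10 matched the table by Ensembl identifier and passed the filter on low counts, as did 18090 genes in all. RNA-seq had been performed on 15 samples, 3 each of ESCs, EpiLCs, D2PGCLCs, D4PGCLCs and D6PGCLCs. All samples came from mouse Stella-eGFP ESCs, whose eGFP follows the germ cell gene *Stella* (*Dppa3*), and all carried doxycycline-inducible transgenes for *Prdm1*, *Prdm14*, *Tfap2c* and *Nanog* (4TF). The transgenes had been inserted with *piggyBac* vectors, and that for *Tfap2c* with a lentivirus, under drug selection. Clonal lines were isolated, and which line gave these samples is not given in the sources used here. Naive ESCs were grown in 2i with LIF. EpiLCs, which resemble the formative epiblast, were taken after 48 hours in Activin A and bFGF, and neither they nor ESCs were given doxycycline or sorted on eGFP. PGCLCs were made from EpiLCs with doxycycline and without cytokines, and were the Stella-eGFP+ cells on days 2, 4 and 6. Induction therefore goes together with doxycycline, transgene expression, aggregate culture, medium and sorting, which cannot be told apart here. The question was which of the 10 genes are already on before PGCLC induction and which were higher after it.

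PIWI-interacting RNAs (piRNAs) are small RNAs that guide PIWI proteins to transposon transcripts and, in fetal male germ cells, to transposon DNA for methylation. Long precursors are unwound by the helicase MOV10L1, cut at the mitochondrial surface by PLD6 with the scaffold ASZ1, loaded into PIWI proteins with the help of co-chaperones such as FKBP6, and methylated at their ends by HENMT1. GTSF1 and MAEL act with the loaded PIWI proteins in transposon silencing. TEX19.1 and MOV10 restrain retrotransposons outside this pathway, and MOV10 is also made in many somatic cells.

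Promoters are shown because germline genes of this kind are known to have promoters rich in CpG or to hold E-boxes. Whether either feature goes with when a gene came on was not tested. Windows of 250 bases before to 50 bases after the start were taken from RefSeq (GRCm38.p6), and all 10 genes matched. *Mov10*, *Pld6* and *Fkbp6* had 2 windows each, of which the window nearest the GENCODE start was used. Shares over all windows count every window of a gene. The E-box CACGTG, a core bound by basic helix-loop-helix factors that reads the same on both strands, was present in 4 of the 10 windows and in 7.15% of 32851 windows of this length. The other motif searched, GCGGGAA on both strands, an E2F-type site, was in none of the 10 windows and in 4.60% of all windows. Neither motif overlaps the other. Both hold a CpG, and their share among windows of similar CpG count was not counted. *Mael*, *Mov10l1* and *Pld6* hold 1 E-box each and *Fkbp6* holds 2, with first bases at -223, -246, -33, -101 and -37 from the start in that order. The 4 windows lie at chr1:166238695-166238994 (minus strand), chr15:88982744-88983043 (plus), chr11:59787608-59787907 (minus) and chr5:135349995-135350294 (minus), with the E-box in capitals:
Mael: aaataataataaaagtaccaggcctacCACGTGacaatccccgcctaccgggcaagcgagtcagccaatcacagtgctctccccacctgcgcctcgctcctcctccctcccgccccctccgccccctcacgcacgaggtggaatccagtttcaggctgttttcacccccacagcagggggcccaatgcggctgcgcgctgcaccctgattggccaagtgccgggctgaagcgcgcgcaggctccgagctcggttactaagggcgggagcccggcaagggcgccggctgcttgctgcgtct
Mov10l1: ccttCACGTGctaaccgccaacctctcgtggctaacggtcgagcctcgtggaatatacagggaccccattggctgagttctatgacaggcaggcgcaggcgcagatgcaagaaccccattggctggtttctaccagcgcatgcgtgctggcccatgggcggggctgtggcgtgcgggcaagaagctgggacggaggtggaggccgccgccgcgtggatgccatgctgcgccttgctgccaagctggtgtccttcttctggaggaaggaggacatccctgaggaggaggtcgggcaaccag
Pld6: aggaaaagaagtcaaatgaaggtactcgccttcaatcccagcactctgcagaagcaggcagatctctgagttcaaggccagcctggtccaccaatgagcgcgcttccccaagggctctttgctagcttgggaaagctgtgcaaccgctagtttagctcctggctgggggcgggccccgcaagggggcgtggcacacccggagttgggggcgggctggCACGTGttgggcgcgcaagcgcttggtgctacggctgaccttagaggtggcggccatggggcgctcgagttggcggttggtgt
Fkbp6: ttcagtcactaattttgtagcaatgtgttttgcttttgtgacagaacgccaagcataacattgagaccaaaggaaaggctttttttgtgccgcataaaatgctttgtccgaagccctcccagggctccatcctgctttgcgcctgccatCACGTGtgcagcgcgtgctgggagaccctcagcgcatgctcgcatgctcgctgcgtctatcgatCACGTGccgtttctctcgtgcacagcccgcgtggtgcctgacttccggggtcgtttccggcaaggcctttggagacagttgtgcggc

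CpG counts differed widely among the 10 windows. *Henmt1* had 31, *Mael* 24, *Fkbp6* 21, *Mov10l1* 20, *Pld6* 18, *Asz1* 17, *Tex19.1* 16, *Gtsf1* 13, *Mov10* 9 and *Tex19.2* 2, against a median of 7 and quartiles of 3 and 20 over all windows. The RefSeq start of *Henmt1* lies 684 bases from its GENCODE start, and that of *Mov10l1* 85 bases, so both windows describe the RefSeq start only. *Asz1*, the gene that came on last, and the related *Tex19.1* and *Tex19.2* are shown with CpG in capitals, at chr6:18109012-18109311 (minus), chr11:121145893-121146192 (plus) and chr11:121118628-121118927 (minus):
Asz1: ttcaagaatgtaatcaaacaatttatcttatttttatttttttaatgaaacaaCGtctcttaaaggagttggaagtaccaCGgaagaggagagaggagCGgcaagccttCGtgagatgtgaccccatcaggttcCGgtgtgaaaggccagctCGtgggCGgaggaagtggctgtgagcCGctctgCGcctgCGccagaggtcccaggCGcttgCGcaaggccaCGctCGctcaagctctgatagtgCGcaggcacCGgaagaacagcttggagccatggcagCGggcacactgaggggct
Tex19.1: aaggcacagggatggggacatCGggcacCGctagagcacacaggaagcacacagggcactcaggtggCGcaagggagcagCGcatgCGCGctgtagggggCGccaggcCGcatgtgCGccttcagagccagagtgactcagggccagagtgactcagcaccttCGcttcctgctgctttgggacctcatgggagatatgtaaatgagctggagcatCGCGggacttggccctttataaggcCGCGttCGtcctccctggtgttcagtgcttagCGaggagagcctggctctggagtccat
Tex19.2: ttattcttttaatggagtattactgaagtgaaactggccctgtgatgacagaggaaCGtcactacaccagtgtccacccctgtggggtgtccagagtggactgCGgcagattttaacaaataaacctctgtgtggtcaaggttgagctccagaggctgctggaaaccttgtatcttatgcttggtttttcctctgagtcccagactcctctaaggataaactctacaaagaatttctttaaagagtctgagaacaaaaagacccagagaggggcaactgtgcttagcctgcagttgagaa

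**Figure D1:**
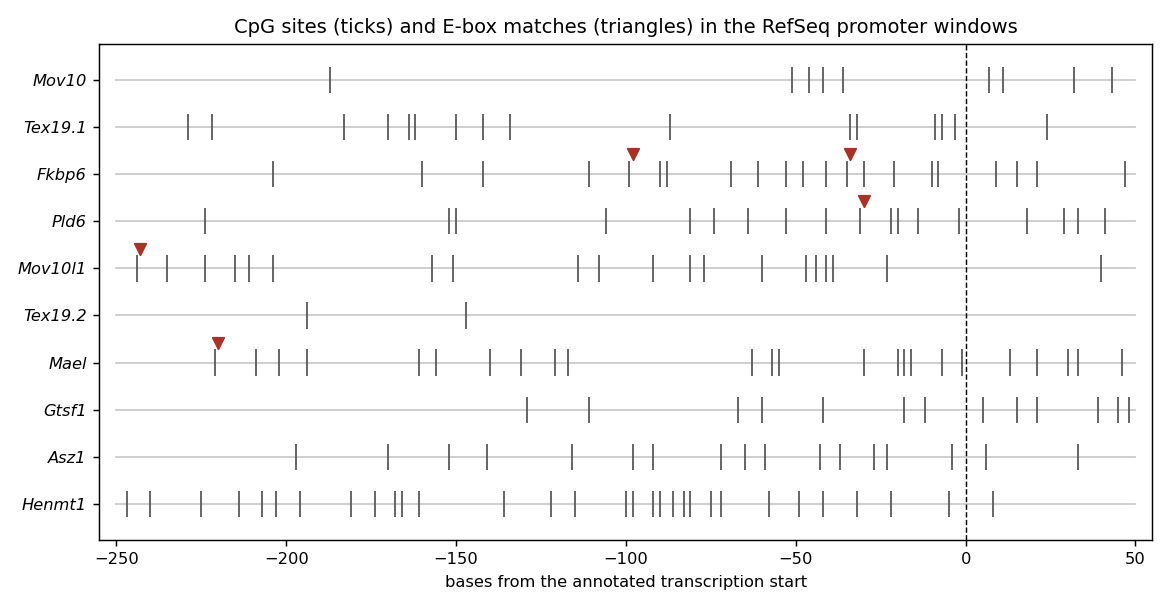
Positions of CpG sites (ticks) and E-box matches (triangles) in the RefSeq promoter window of each gene, with bases from the annotated start on the x axis and the start at 0. E-boxes lie in 4 windows, and the *Tex19.2* window has 2 CpG sites where the *Mael* window has 24.

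The samples held 22555021 to 42725681 counts each. The number of genes with at least 1 count was 21103 to 24343 in 14 samples and 18061 in D6PGCLC replicate 1, which stands apart, so counts of calls that use it are given with and without it. Coordinates of genes are those of GENCODE M21 (GRCm38, the same assembly as mm10), and all 10 are protein-coding. Levels are CPM, counts scaled to library size after TMM normalization, and a level compared between genes is CPM per kb of GENCODE M21 exons. Summed marker levels went with the labels, though not every marker did. The sum of 5 naive ESC markers was 1471 to 1495 CPM in ESCs and at most 1131 CPM elsewhere. Within it *Nr0b1* was 60.2 CPM in ESCs and 113 CPM on day 2, and *Esrrb* 590 and 620 CPM. The sum of 5 EpiLC markers was 1830 to 1971 CPM in EpiLCs, led by *Dnmt3b* at 1558 CPM, and at most 143.7 CPM elsewhere. That of 7 PGC markers was 894 to 1111 CPM in PGCLCs and at most 339.5 CPM before induction. Of these 7, *Prdm1*, *Prdm14* and *Tfap2c* are transgenes and the sort followed *Dppa3*, so this sum is no independent check. *Prdm14* was 96.4 CPM in EpiLCs and 93.4 CPM on day 2. The others, *Nanos3*, *Dnd1* and *Itgb3*, were 1.26, 12.8 and 3.59 CPM in EpiLCs and 14.85, 38.2 and 125 CPM on day 2. On day 6, 4 endoderm, 4 mesoderm and 3 trophoblast markers summed to 9.03 to 16.9, 10.6 to 16.0 and 8.99 to 14.1 CPM. In D4PGCLCs these sums were 3.29 to 4.01, 3.00 to 4.49 and 7.20 to 9.45 CPM. Each day 6 sum was led by 1 gene, in that order *Gata6* (9.2 CPM), *Hand1* (13.1 CPM) and *Gata3* (10.4 CPM). The other markers of these lists had day 6 means of at most 1.94 CPM (*Gata4*). *T* was 14.8 CPM in ESCs and 0.0241 CPM on day 6. The 3 neural markers summed to 7.47 to 10.5 CPM on day 4 and 6.23 to 10.4 CPM on day 6. What part cells with these markers had in the day 6 values was not tested. The 5 fibroblast markers, for feeder cells, summed to 7.58 to 8.38 CPM in ESCs, 18.2 to 19.8 CPM in EpiLCs and 0.889 to 2.19 CPM in PGCLCs, led in EpiLCs by *Thy1* at 12.8 CPM. Their sum thus moves with both the step from ESCs to EpiLCs and that to day 2, and its part in those values was not tested. In these bulk samples, fewer cells of a type and less RNA per cell cannot be told apart. Nothing in the labels says that replicates were separate cultures, so p-values measure the spread between these samples.

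Most of the 10 genes were on before induction. A gene was counted as on in a group when all 3 replicates had at least 1 CPM, and by this rule 7 were on in the ESC group, 8 in EpiLCs, 8 on day 2, 9 on day 4 and 9 on day 6. Among all genes tested the share that was on was 69.9%, 71.3%, 68.2%, 70.1% and 70.7% in the same order. The 7 of 10 in ESCs and the 8 of 10 in EpiLCs and on day 2 are thus near the background. *Mov10*, *Tex19.1*, *Fkbp6*, *Pld6*, *Gtsf1*, *Mov10l1* and *Tex19.2* were on in all 5 groups. *Mael* was off in ESCs and on from EpiLCs onward. *Asz1* was the 1 gene that came on after induction, from day 4, and *Henmt1* was on in no group. The place of *Asz1* depends on the threshold: its 3 ESC replicates had 0.693, 0.877 and 1.00 CPM, so with 0.5 CPM it was on in ESCs and none of the 10 genes came on after induction, and without EpiLC replicate 2, at 0.756 CPM, it was on in EpiLCs. With 2 CPM *Tex19.2* was off in ESCs and *Gtsf1* in D2PGCLCs, and with 1 CPM per kb *Mov10l1* and *Tex19.2* were off in ESCs.

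**Figure D2:**
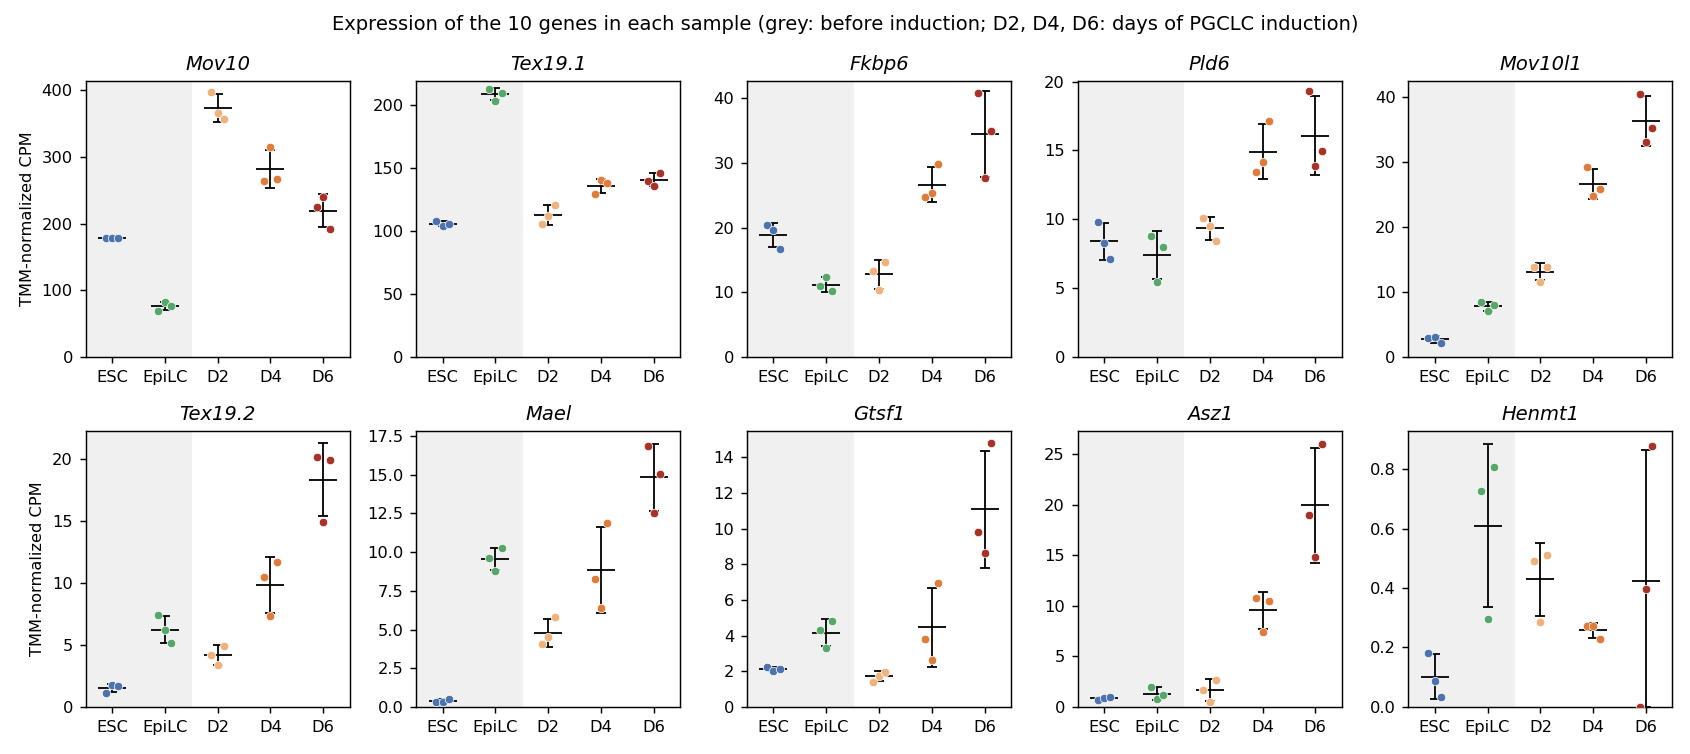
CPM (y axis, from 0, own scale per gene) of the 10 genes in the 5 groups, with points for samples and bars for mean ± SD of 3 replicates; grey marks the groups before induction. *Mov10* is highest in D2PGCLCs and *Tex19.1* in EpiLCs, while *Asz1* has at most 2.67 CPM in a sample until it reaches 7.41 to 10.8 CPM on day 4.

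Among the genes that make piRNAs, *Mov10l1* (chr15:88982909-89055152, plus strand), the germ cell helicase that starts precursor processing, stood higher in each successive group. ESC replicates had 2.88, 3.16 and 2.14 CPM and EpiLC replicates 8.42, 7.10 and 7.96 CPM. Levels were then 13.9, 11.6 and 13.8 CPM on day 2, 29.2, 24.7 and 25.9 CPM on day 4 and 40.5, 33.0 and 35.2 CPM on day 6. No 2 successive groups overlapped. The log2 fold change was 1.53 ± 0.16 (SE) in EpiLCs over ESCs (edgeR adjusted p = 1.58e-07), 1.02 ± 0.13 in D4PGCLCs over D2PGCLCs (adjusted p = 1.38e-04) and 2.21 ± 0.14 in D6PGCLCs over EpiLCs (adjusted p = 2.39e-10). The steps from EpiLCs to day 2 and from day 4 to day 6 were 0.74 ± 0.14 and 0.45 ± 0.13, under the log2 cutoff of 1 used for calls. The day 2 to day 4 value lies just past it, and was 0.94 without D2PGCLC replicate 2 and 0.95 without D4PGCLC replicate 1. Of the log2 difference between D6PGCLCs and ESCs, 40.9% lay between ESCs and EpiLCs.

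*Asz1* (chr6:18050964-18109061, minus strand), which encodes the mitochondrial scaffold of germ cell granules, was at or below 2.67 CPM in every sample until day 2 and then rose. EpiLC replicates had 1.99, 0.756 and 1.14 CPM and D2PGCLC replicates 1.72, 0.502 and 2.67 CPM, which overlapped each other and the ESC range. D4PGCLC replicates had 10.8, 7.41 and 10.4 CPM and D6PGCLC replicates 19.0, 14.8 and 26.0 CPM, with no overlap between these groups or with any earlier one. The change from D2PGCLCs to D4PGCLCs was 2.52 ± 0.38 on the log2 scale (edgeR adjusted p = 3.74e-04). By day 6 the difference from EpiLCs was 3.96 ± 0.40 (adjusted p = 1.17e-07), the highest of the 10 genes in that comparison. From day 4 to day 6 it was 1.06 ± 0.34 (adjusted p = 0.0446), and this call was lost under DESeq2 (adjusted p = 0.105) and when any of 5 of the 6 samples was left out (adjusted p from 0.0691 to 0.174). EpiLCs differed from ESCs by 0.57 ± 0.47 (adjusted p = 0.326), 12.6% of the log2 difference between D6PGCLCs and ESCs.

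*Pld6* (chr11:59783897-59787645, minus strand), the mitochondrial nuclease that cuts piRNA precursors, was on throughout at a modest level. It ranged from 5.46 to 9.78 CPM over ESCs and EpiLCs, which overlapped, and had 10.1, 9.53 and 8.43 CPM on day 2. The replicates had 13.4, 14.2 and 17.2 CPM on day 4 and 19.3, 13.9 and 15.0 CPM on day 6, above all earlier samples. *Pld6* rose by 1.01 ± 0.18 from EpiLCs to day 4 on the log2 scale (edgeR adjusted p = 1.29e-04) and by 1.12 ± 0.18 to day 6 (adjusted p = 4.12e-05). Both values are close to the cutoff of 1. The day 4 value was 0.95 under DESeq2, 0.84 without EpiLC replicate 2 and 0.91 without D4PGCLC replicate 3, and the day 6 value was 0.95 without EpiLC replicate 2 and 0.97 without D6PGCLC replicate 1.

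Of the PIWI partners, *Gtsf1* (chr15:103402405-103430470, minus strand), a small zinc finger protein that assists PIWI slicing, dipped on day 2 before its rise. ESC replicates had 2.23, 2.02 and 2.14 CPM and EpiLC replicates 4.32, 3.32 and 4.81 CPM. On day 2 levels were 1.41, 1.76 and 1.98 CPM, below every EpiLC and ESC sample. They were 3.79, 2.65 and 6.93 CPM on day 4 and 9.80, 8.65 and 14.8 CPM on day 6. Day 4 overlapped EpiLCs, and day 6 lay above every other sample. *Gtsf1* fell by 1.27 on the log2 scale from EpiLCs to day 2 (SE 0.310, edgeR adjusted p = 0.00195). It then rose by 1.38 ± 0.31 to day 4 (adjusted p = 0.00686) and by 1.31 ± 0.28 from day 4 to day 6 (adjusted p = 0.00575). Without D4PGCLC replicate 3, the highest of its group, the first of these was 0.91 (adjusted p = 0.057) and the call was lost.

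*Fkbp6* (chr5:135291704-135350044, minus strand), an inactive immunophilin that works with HSP90 in piRNA loading, was lowest in EpiLCs and highest on day 6. Its levels were 18.9 ± 1.90 CPM in ESCs (SD, n = 3), 11.2 ± 1.12 CPM in EpiLCs and 12.8 ± 2.23 CPM on day 2. They were 26.6 ± 2.75 CPM on day 4 and 34.5 ± 6.59 CPM on day 6. EpiLC and day 2 samples overlapped, as did day 4 and day 6 samples. The rise from EpiLCs was 1.25 ± 0.16 to day 4 (edgeR adjusted p = 1.62e-06) and 1.62 ± 0.16 to day 6 (adjusted p = 5.61e-08). The rise from day 2 to day 4 was 1.05 ± 0.15 (adjusted p = 3.06e-04), and was under the cutoff, at 0.92 without D2PGCLC replicate 2 and 0.97 without D4PGCLC replicate 3. Between ESCs and EpiLCs the difference was -0.75 ± 0.16, under the cutoff, with no overlap.

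*Henmt1* (chr3:108939873-108960774, plus strand), the methyltransferase that protects piRNA ends, was close to undetected. ESC replicates had 5, 2 and 1 counts and EpiLC replicates 19, 9 and 22 counts. Day 2 replicates had 16, 8 and 17 counts, day 4 replicates 9, 9 and 8 counts and day 6 replicates 0, 18 and 31 counts. The 0 is in D6PGCLC replicate 1, and allows up to 0.0788 CPM at the depth of that sample, for counting error only. That sample had 18061 genes with a count, against 24343 and 24144 in the other day 6 samples. The reason is not given, so this bound may not hold for it. *Henmt1* was called higher in EpiLCs than in ESCs (log2 2.55 ± 0.98, edgeR adjusted p = 0.0351), but the call was lost in 4 of 6 fits that left out a sample (ESC replicate 2 or 3, EpiLC replicate 1 or 3; adjusted p from 0.0802 to 0.132). It was called in none of the comparisons of PGCLCs, although without D6PGCLC replicate 1 it was called higher in D6PGCLCs than in ESCs at a log2 of 2.62 (adjusted p = 0.00502). Its exons share 392 bases with *Gm9857* on the opposite strand, which had 0 to 2 counts, and whether counting used strand is not given in the sources used here.

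*Mael* (chr1:166201201-166238747, minus strand), a silencing factor of germ cell granules, was the 1 gene that switched on between ESCs and EpiLCs by the rule of 1 CPM. With 2 CPM *Tex19.2* did so too, and with 1 CPM per kb both *Tex19.2* and *Mov10l1*. For *Mael*, ESC replicates had 0.292, 0.307 and 0.502 CPM, from 7 to 15 counts, and EpiLC replicates 9.64, 8.78 and 10.2 CPM. On day 2 the levels were 4.04, 4.51 and 5.79 CPM, between the ESC and EpiLC ranges. They were 8.28, 6.42 and 11.9 CPM on day 4, overlapping EpiLCs, and 16.9, 12.5 and 15.1 CPM on day 6, above every other sample. The rise from ESCs to EpiLCs was 4.66 ± 0.29 on the log2 scale (edgeR adjusted p = 1.79e-10), the highest of the 10 genes, and made up 88.0% of the log2 difference between D6PGCLCs and ESCs. The change to day 2 was -0.996 ± 0.22 (adjusted p = 7.13e-04), just inside the cutoff and so not called. It was called lower under DESeq2 at -1.04, and without EpiLC replicate 2 (-1.05) or D2PGCLC replicate 3 (-1.15). D6PGCLCs differed from EpiLCs by 0.63 ± 0.21 (adjusted p = 0.0136), under the cutoff.

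*Tex19.1* (chr11:121146143-121148319, plus strand), which restrains LINE-1 elements in germ cells, peaked before induction. Replicates had 108, 104 and 106 CPM in ESCs and 213, 204 and 209.6 CPM in EpiLCs. They had 106, 112 and 121 CPM on day 2, 129, 140.5 and 138 CPM on day 4 and 139.9, 136 and 146 CPM on day 6. Every EpiLC sample lay above every other sample. None of the 7 comparisons called *Tex19.1*: EpiLCs exceeded ESCs by 0.98 ± 0.07 (edgeR adjusted p = 1.20e-09) and D2PGCLCs differed from EpiLCs by -0.89 ± 0.07 (adjusted p = 5.34e-09), both under the cutoff of 1, and under DESeq2 the first was 1.01 and called. Per kb it was the most highly expressed of the 10 genes in 4 of the 5 groups, from 56.6 CPM per kb in ESCs to 111.5 in EpiLCs, with *Mov10* at 66.6 above it on day 2 (60.3).

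*Tex19.2* (chr11:121116215-121118677, minus strand), its relative on the same chromosome, followed another course. Replicates had 1.13, 1.75 and 1.68 CPM in ESCs and 7.38, 6.21 and 5.14 CPM in EpiLCs, with no overlap. They had 4.20, 3.37 and 4.95 CPM on day 2, 10.5, 7.35 and 11.7 CPM on day 4 and 20.2, 15.0 and 19.9 CPM on day 6. Day 2 lay below every EpiLC sample, and day 6 above every other sample. *Tex19.2* rose by 2.04 ± 0.24 from ESCs to EpiLCs (edgeR adjusted p = 9.83e-07) and by 1.24 ± 0.21 from day 2 to day 4 (adjusted p = 0.00116). The difference between D2PGCLCs and EpiLCs was -0.58 ± 0.22 (adjusted p = 0.0322), under the cutoff. D6PGCLCs stood 1.55 ± 0.21 above EpiLCs (adjusted p = 4.20e-06), and 56.7% of the log2 difference between D6PGCLCs and ESCs lay before induction.

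*Mov10* (chr3:104794836-104818563, minus strand), the broadly expressed helicase that restricts retroelements, fell to its lowest level in EpiLCs and peaked on day 2. ESC replicates had 179, 178 and 179 CPM and EpiLC replicates 69.8, 82.8 and 77.1 CPM. Day 2 replicates had 398, 366 and 356 CPM, day 4 replicates 264, 315 and 267 CPM and day 6 replicates 225, 241 and 192 CPM. No 2 groups overlapped, and the order was day 2, day 4, day 6, ESC and EpiLC. *Mov10* fell by 1.22 on the log2 scale from ESCs to EpiLCs (SE 0.0947, edgeR adjusted p = 3.15e-09) and rose by 2.29 ± 0.10 from EpiLCs to day 2 (adjusted p = 1.40e-12). Its later differences were -0.41 ± 0.09 from day 2 to day 4 and -0.36 ± 0.09 from day 4 to day 6, under the cutoff, and D6PGCLCs remained 1.52 ± 0.10 above EpiLCs (adjusted p = 1.95e-10).

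Counted over the 10 genes, most calls fell at the EpiLC step and at days 4 and 6, with few on day 2. Between ESCs and EpiLCs 4 rose (*Mael*, *Mov10l1*, *Tex19.2* and *Henmt1*) and 1 fell (*Mov10*), where 14.4% and 11.9% of all genes tested were called higher and lower. The 1 of 10 that fell is near the background. The call of *Henmt1*, which had few counts, was lost in 4 of 6 fits that left out a sample. From EpiLCs to day 2, *Mov10* rose and *Gtsf1* fell, 1 of 10 in each direction, against 11.0% and 14.4% of all genes, which is near the background. From EpiLCs to day 4, 5 rose (*Asz1*, *Mov10l1*, *Mov10*, *Pld6* and *Fkbp6*) and 0 fell, against 14.0% and 12.8%. From EpiLCs to day 6, 7 rose, *Tex19.2* and *Gtsf1* joining those 5, and 0 fell, against 15.9% and 12.0%. Without D6PGCLC replicate 1 the 7 became 6, as *Pld6* was lost. These 3 comparisons share the EpiLC samples. The counts of 0 are from edgeR, and DESeq2 also gave 0. *Tex19.1* differed from EpiLCs by -0.62 ± 0.07 on day 4 (edgeR adjusted p = 5.07e-07) and -0.57 ± 0.07 on day 6 (adjusted p = 1.34e-06). It was not called because both values are under the fold cutoff of 1. No other of the 10 genes was lower at an unadjusted p under 0.05. The share of all genes at that threshold was not counted.

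Within the induction, 5 of the 10 genes rose from day 2 to day 4 (*Asz1*, *Mov10l1*, *Tex19.2*, *Gtsf1* and *Fkbp6*) and 0 fell, where 2.56% and 0.376% of all genes were called. Leaving out D2PGCLC replicate 2 or D4PGCLC replicate 3 lowered the 5 to 3, *Fkbp6* being lost in both cases, with *Mov10l1* in the first and *Gtsf1* in the second. Leaving out D2PGCLC replicate 3 or D4PGCLC replicate 2 raised it to 6, as *Mael* was called at 1.05 and 1.07. From day 4 to day 6, *Asz1* and *Gtsf1* rose and 0 fell, against 2.29% and 0.785%, and without D6PGCLC replicate 1 *Gtsf1* alone was called. The call of *Asz1* at this step was lost in 5 of 6 fits that left out a sample, all but that without D6PGCLC replicate 2. Between ESCs and D6PGCLCs, 5 rose (*Mael* by 5.30 ± 0.29, *Asz1* by 4.53 ± 0.42, *Mov10l1* by 3.74 ± 0.16, *Tex19.2* by 3.60 ± 0.24 and *Gtsf1* by 2.38 ± 0.30) and 0 fell, against 15.8% and 10.3%. Without D6PGCLC replicate 1 the 5 became 6, with *Henmt1*. Beside these counts of 0, DESeq2 also gave 0. *Mov10* was lower at both steps within the induction (edgeR adjusted p = 0.00793 and 0.0148), with both values under the fold cutoff. At an unadjusted p under 0.05 none of the 10 genes was lower on day 6 than in ESCs. The share of all genes at that threshold was not counted. The median log2 fold change of the 10 genes was 0.97 in EpiLCs over ESCs, -0.15 on day 2, 0.84 on day 4 and 1.47 on day 6 over EpiLCs, and 2.20 on day 6 over ESCs, beside medians over all genes of -0.01, 0.00, 0.03, 0.03 and 0.00.

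**Figure D3:**
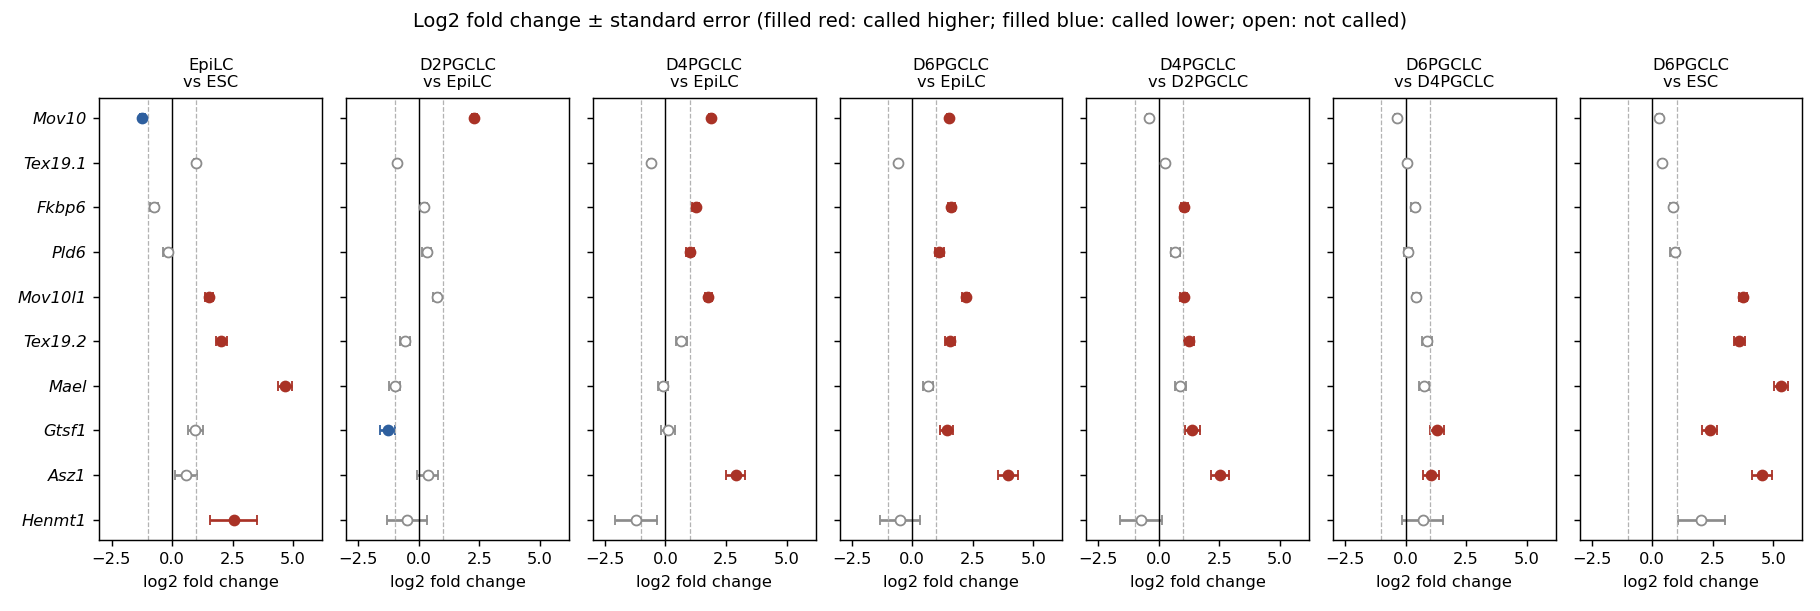
Log2 fold change (x axis) ± SE of the 10 genes in the 7 comparisons; filled red points were called higher, filled blue points lower and open points not called, and dashed lines mark the cutoff of 1. On day 2 over EpiLCs 1 of 10 genes is called in each direction, near the 11.0% (higher) and 14.4% (lower) of all genes. On day 6 over EpiLCs 7 of 10 genes are called higher, against 15.9% of all genes.

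Levels of related genes were compared per kb. The starts of *Tex19.1* and *Tex19.2* lie 27466 bases apart on chromosome 11, on opposite strands, and their longest open reading frames were 77.1% identical over 948 aligned bases, and the longest run that their transcripts share was 72 bases. How reads matching both were counted is not given in the sources used here, so the split between them is uncertain. Per kb, *Tex19.2* was 1.32% ± 0.313 of *Tex19.1* in ESCs (SD, n = 3), 2.74% ± 0.466 in EpiLCs, 3.38% ± 0.543 on day 2, 6.66% ± 1.64 on day 4 and 11.9% ± 1.64 on day 6. Its share was 0.958% to 1.54% in ESC samples and 10.1% to 13.2% in D6PGCLC samples, with no overlap. *Mov10* and *Mov10l1* reading frames were 64.2% identical over 2919 aligned bases, and their transcripts share at most 13 bases in a run. *Mov10l1* was 2.05% ± 0.395 of *Mov10* per kb in ESCs, 13.8% ± 2.33 in EpiLCs, 4.71% ± 0.471 on day 2, 12.8% ± 2.16 on day 4 and 22.4% ± 3.45 on day 6. On day 2 this share was below its EpiLC range while *Mov10l1* itself was above its own and *Mov10* was at its peak. *Gtsf1* stayed below its relative *Gtsf1l*, at 3.49% ± 0.245 of it per kb in ESCs, 5.29% ± 0.880 in EpiLCs, 2.41% ± 0.284 on day 2, 5.12% ± 2.16 on day 4 and 17.7% ± 6.28 on day 6, and *Gtsf2* had at most 3 counts in any sample.

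**Figure D4:**
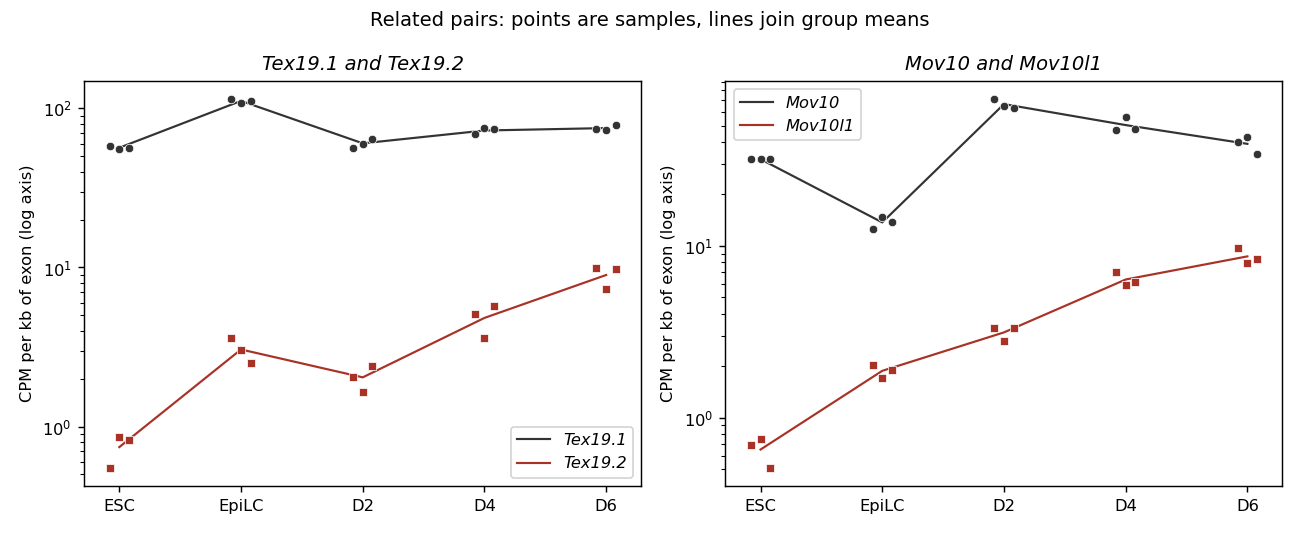
CPM per kb of exon (log y axis) of *Tex19.1* with *Tex19.2* and of *Mov10* with *Mov10l1* in the 5 groups; points are samples and lines join group means. *Tex19.2* goes from 1.32% of *Tex19.1* in ESCs to 11.9% in D6PGCLCs, and *Mov10l1* from 2.05% to 22.4% of *Mov10*.

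A list of 22 other piRNA pathway genes, of which 20 were tested (*Tdrd6* and *Spocd1* were too low), gives the setting. From ESCs to EpiLCs 9 of the 20 rose and 1 fell, where 14.4% and 11.9% of all genes were called. From EpiLCs to day 2, 2 rose and 4 fell (all genes 11.0% and 14.4%), so the 2 that rose are near the background. From EpiLCs to day 4, 8 rose and 3 fell (14.0% and 12.8%), and to day 6, 10 rose and 3 fell (15.9% and 12.0%). From day 2 to day 4, 2 rose and 0 fell (2.56% and 0.376%), and from day 4 to day 6, 1 rose and 0 fell (2.29% and 0.785%). From ESCs to day 6, 12 rose and 0 fell (15.8% and 10.3%). Without D6PGCLC replicate 1, a fit added after seeing the data, 9 rose and 3 fell from EpiLCs to day 6, 1 rose from day 4 to day 6 and 11 rose from ESCs to day 6. The 8 on day 4 were 5 without EpiLC replicate 1, the 2 on day 2 were 1 without D2PGCLC replicate 2, the 1 from day 4 to day 6 was 0 without D4PGCLC replicate 2, and the 1 that fell in EpiLCs was 2 without ESC replicate 2. *Tdrd1*, a Tudor scaffold, rose in EpiLCs and fell on day 2: it was 0.128 ± 0.0409 CPM in ESCs, 3.57 ± 0.124 CPM in EpiLCs, 1.77 ± 0.0225 CPM on day 2 and 3.76 ± 0.751 CPM on day 6. *Piwil2*, the PIWI protein of early germ cells, rose from ESCs to EpiLCs by 1.01 ± 0.16 (edgeR adjusted p = 3.77e-05) and from EpiLCs to day 6 by 1.77 ± 0.15 (adjusted p = 1.60e-08). *Ddx4*, the germ cell helicase VASA, rose by 1.91 ± 0.13 and 1.57 ± 0.12 over the same steps, and *Tdrkh*, the mitochondrial partner of PIWI proteins, by 3.18 ± 0.23 and 1.80 ± 0.18. Other genes had their highest mean in EpiLCs: *Piwil4*, the nuclear PIWI protein, rose by 4.29 ± 0.43 in EpiLCs and was at -3.22 ± 0.38 relative to EpiLCs on day 2, and *Dnmt3l*, the cofactor of DNA methylation, was at -2.21 ± 0.26. *Btbd18*, a regulator of piRNA precursor transcription, rose at day 2 and again at day 4, with 0.512 ± 0.0629 CPM in EpiLCs, 1.76 ± 0.292 CPM on day 2, 4.65 ± 0.326 CPM on day 4 and 8.14 ± 1.10 CPM on day 6.

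**Figure D5:**
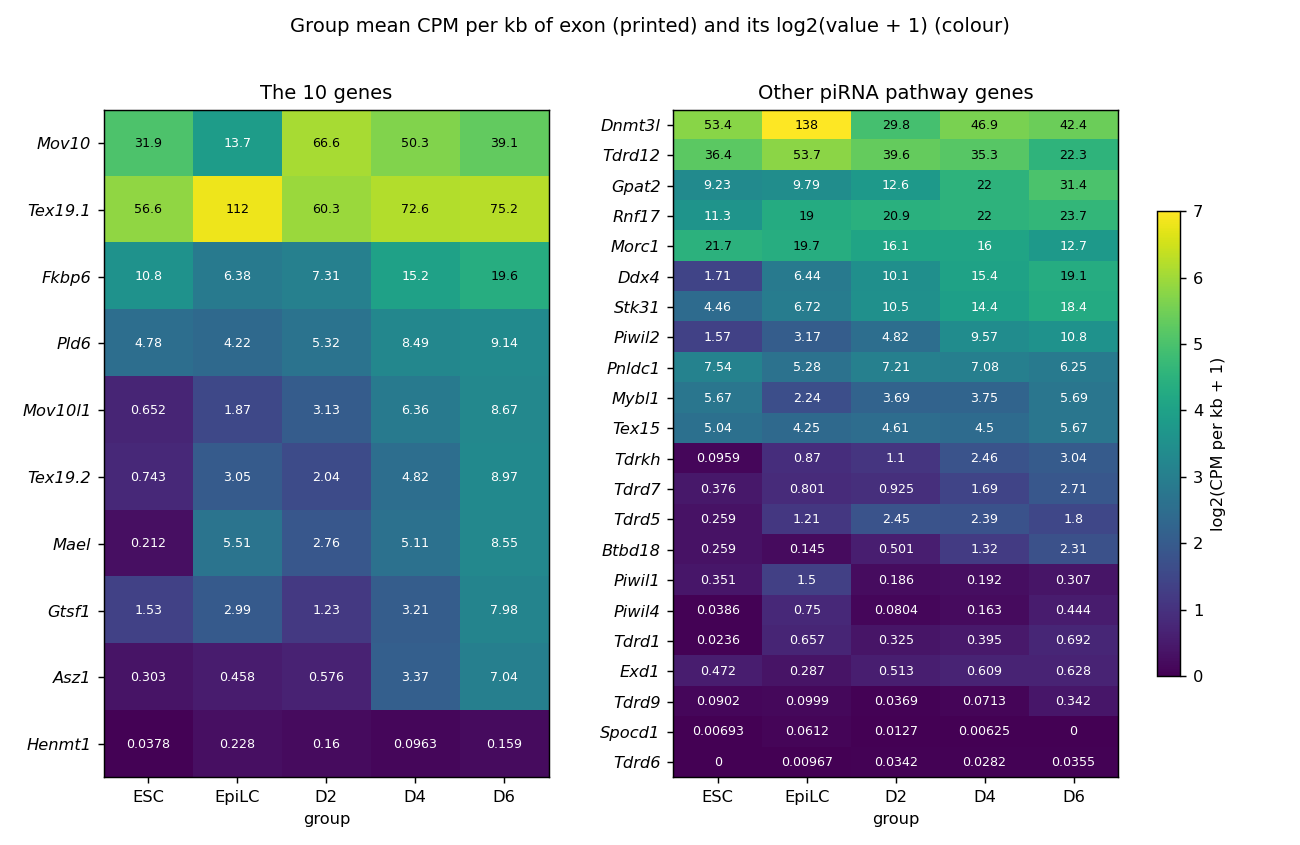
Group mean CPM per kb of exon (printed) and its log2(value + 1) (colour) for the 10 genes (left) and 22 other piRNA pathway genes (right) over the 5 groups. *Asz1* goes from 0.303 CPM per kb in ESCs to 7.04 in D6PGCLCs, while *Dnmt3l* peaks in EpiLCs.

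Genes whose pattern was most like each of the 10 were found by Pearson's r of log2(CPM + 1) over the 15 samples, among 13571 tested genes with a mean of at least 1 CPM. These values are descriptions: the points share libraries and fall into 5 groups. *Asz1* was most like *Rhox2b* and *1700080O16Rik* (r = 0.981 for both) and *Mael* most like *Acaa1b* (0.987). *Mov10l1* was most like *Ptpdc1* (0.995), *Mov10* most like *Atg13* (0.992) and *Il6st*, the shared receptor chain of the LIF family (0.989), and *Tex19.1* most like *Rims4* (0.983). *Tex19.2* was most like *Rap2b* (0.986), *Fkbp6* most like *Mmrn2* (0.964), *Gtsf1* most like *Col22a1* (0.945) and *Pld6* most like *Eva1a* (0.945). For *Henmt1*, with few counts, the highest value was 0.832. Among the 10 genes themselves, r was highest for *Mael* with *Tex19.2* (0.922) and *Mov10l1* with *Tex19.2* (0.917), and lowest for *Mov10* with *Tex19.1* (-0.772).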

How the data were processed

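Total RNA of 15 samples was sequenced from directional libraries. Reads were aligned to mouse mm10 with Ensembl annotations, and the submitters' processing notes name Trim Galore, FastQC and STAR. The counting tool, its strand setting and its treatment of reads matching several genes are not given in the sources used here. The authors deposited raw counts per gene, not normalized, for 55536 genes; all identifiers matched GENCODE M21, which gave symbols and exon lengths.

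Counts were tested with edgeR 4.0.16 in R 4.3.3: TMM normalization, filterByExpr (minimum count 10), the quasi-likelihood test with group as the model term and all 15 samples in the fit, and p-values adjusted by Benjamini-Hochberg across the 18090 genes that passed. Genes were called at an adjusted p under 0.05 with an absolute log2 fold change above 1, in 7 comparisons. The depth of 22555021 to 42725681 counts makes 3 counts worth 0.0661 to 0.132 CPM. DESeq2 1.42.0, its size factors, no low-count filter, a replicate block, fits of 2 groups, no fold cutoff and leaving out each sample were alternatives. The test was checked on simulated data. The 10 genes, the marker and pathway lists and the motifs were chosen with earlier results of these data known. All 10 genes are named. Beside each, the genes with the highest correlation over the samples are named, and of the pathway list a few.

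Replicates differed by more than sampling noise (chi-square per gene 8.82 to 44.6). Pairing by replicate number was weak and uneven. Same-numbered samples of different groups had a mean correlation of deviations of 0.0703, over 0.1 in 8 of 30 pairs. Other-numbered samples had a mean of -0.0352, over 0.1 in 4 of 60 pairs. Some pairing is therefore possible, and the fit with a replicate block is given as an alternative.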

Additional observations from a re-analysis of the deposited data

How the results depend on the processing

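The number of the 10 genes called lower on day 2 over EpiLCs, 1, was 2 under DESeq2, with its size factors in edgeR and with the replicate block, as *Mael* joined *Gtsf1*, and 1 to 2 when a sample was left out (2 without EpiLC replicate 2 or D2PGCLC replicate 3). The replicate block changed no other call. Same-numbered samples did not deviate together in every pair, and 8 of 15 samples correlated best with their own number. The number called higher from day 4 to day 6, 2, was 1 under DESeq2 and 1 to 3 when a sample was left out (1 without D4PGCLC replicate 1 or 2, or D6PGCLC replicate 1 or 3, and 3 without D4PGCLC replicate 3 or D6PGCLC replicate 2), and that from day 2 to day 4, 5, was then 3 to 6. The number called higher in EpiLCs over ESCs, 4, was 5 under DESeq2 and 3 to 6 when a sample was left out. With no fold cutoff the counts were 6 higher and 2 lower in EpiLCs over ESCs, 2 higher and 4 lower on day 2, 6 higher and 1 lower on day 4 and 8 higher and 1 lower on day 6 over EpiLCs, 9 higher on day 6 over ESCs, 8 higher and 1 lower from day 2 to day 4, and 5 higher and 1 lower from day 4 to day 6. Without D6PGCLC replicate 1, added after seeing the data, these were 7 higher and 1 lower on day 6 over EpiLCs, 10 higher over ESCs, and 2 higher and 1 lower from day 4 to day 6. Likewise, the 5 higher from day 4 to day 6 were 3 without D4PGCLC replicate 1 or 3 and 2 without D4PGCLC replicate 2 or D6PGCLC replicate 3, the 1 lower there was 0 in those last fits, and the 8 higher from day 2 to day 4 were 4 without D4PGCLC replicate 3. The share of all genes tested that passes with no fold cutoff was not counted. These counts with no cutoff therefore have no background beside them and cannot be read as unusual.

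Signs turned only for differences that were not called, when a sample was left out: *Pld6* in EpiLCs over ESCs (-0.31 to 0.0091), *Gtsf1* on day 4 over EpiLCs (-0.36 to 0.38, with -0.024 as the other negative value), *Asz1* on day 2 over EpiLCs (-0.17 to 0.82), *Mael* on day 4 over EpiLCs (-0.37 to 0.082), *Henmt1* on day 6 over EpiLCs (-1.55 to 0.066), *Pld6* from day 4 to day 6 (-0.048 to 0.21) and *Henmt1* from day 4 to day 6 (-0.34 to 1.28). The cause was not tested. Depth limits *Henmt1*, with at most 31 counts in a sample, and *Asz1* before day 4, with 14 to 89 counts. Leaving out a sample brought 13 single values past the thresholds, among them *Pld6* (1.06 without ESC replicate 1, 1.03 without D6PGCLC replicate 2) and *Fkbp6* (1.00 without D6PGCLC replicate 2) on day 6 over ESCs, and *Gtsf1* (1.11) and *Tex19.1* (1.01) in EpiLCs over ESCs without EpiLC replicate 2, and took 18 values below them.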
